A study of Homo sapiens with 15 samples.

Results

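The BCL2 family sets whether a cell under stress opens its outer mitochondrial membrane and dies by apoptosis. Proteins that carry only the BH3 domain sense damage or detachment and bind the guardians of the family, which hold the effector BAX in check. Once BAX is free, it forms pores that release cytochrome c. In airway epithelium this family takes part in the removal of injured cells. From the deposited count table of 58219 genes, 10 genes of this family were taken by their names. They are the BH3-only genes BMF, BBC3, PMAIP1, BCL2L11 and BIK, the effector BAX, and the guardians MCL1, BCL2L1, BCL2A1 and BCL2.

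RNA was sequenced from BEAS-2B cells, an immortalized line of human bronchial epithelium grown as a monolayer, so that no airway tissue or other cell type was present by design. In the 24-h protocol, cells received medium alone (control), 1 µg/cm2 or 30 µg/cm2 of PM2.5 (fine particulate matter) collected in Beijing. In the repeated protocol, cells received medium alone or 1 µg/cm2 daily, with 6 daily exposures and collection on day 7 by the study's methods, while the labels give 7 days. Each of the 5 conditions had 3 libraries, numbered by experiment, which makes 15 libraries. All of them came from the same line, and the 3 experiments are therefore repeats of cultures and not of donors.

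The libraries held 21460981 to 34724765 counted reads (median 29243177), and mitochondrial genes took 2.37% to 4.40% of them. At this depth, 3 counts in a library, taken as the floor of detection, equal 0.0864 to 0.140 counts per 1000000 counted reads, before scaling. This floor covers counting error only. All CPM given below are counts per 1000000 counted reads, scaled by TMM. Experiment 2 of the 24-h protocol stood apart from experiments 1 and 3 in all 3 of its conditions, with a chi-square per degree of freedom of 76.7 to 181 against the other libraries of the same condition, compared with 4.46 to 18.2 between experiments 1 and 3. Some results are also given without it, where stated. All 8 epithelial markers on the list were above the floor in every condition, and no endothelial marker of 3 was. Of the leukocyte markers reported here, PTPRC had at most 2 counts in a library and CD3E at most 8, while CD14 lay between 2.30 and 23.4 CPM. All 4 mesenchymal markers were above the floor, VIM at 146 to 668 CPM.

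A gene was called changed when edgeR's quasi-likelihood test gave a Benjamini-Hochberg adjusted p under 0.05 over the 17599 genes tested and the log2 fold change was 0.6 or more in either direction. Of the 10 genes, 9 passed the filter on low counts. BCL2A1, a guardian typical of blood cells, did not pass and had 0 to 3 counts in each of the 15 libraries, at or under the floor in every condition. No fold change is given for it. In bulk RNA, fewer cells that express a gene and less RNA per cell cannot be told apart.

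BMF and PMAIP1 changed after 30 µg/cm2 in opposite directions, and BCL2L11 differed between the doses. For that reason, the 250 bases before the RefSeq start of transcription on GRCh38.p14 are shown for these 3 genes. The RefSeq start can differ from that of the count table, so the stretch of BCL2L11 lies inside the gene as the table gives it, and those of PMAIP1 and BMF end within the first bases of their genes. Capitals mark GCGTG on either strand, the core letters bound by the aryl hydrocarbon receptor, a sensor of compounds found on combustion particles.
BMF, chr15:40108880-40109129, minus strand: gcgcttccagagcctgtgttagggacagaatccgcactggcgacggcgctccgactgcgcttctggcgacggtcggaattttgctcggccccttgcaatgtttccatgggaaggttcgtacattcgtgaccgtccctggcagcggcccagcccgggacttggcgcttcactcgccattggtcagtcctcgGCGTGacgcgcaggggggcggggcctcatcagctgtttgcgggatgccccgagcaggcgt
PMAIP1, chr18:59899746-59899995, plus strand: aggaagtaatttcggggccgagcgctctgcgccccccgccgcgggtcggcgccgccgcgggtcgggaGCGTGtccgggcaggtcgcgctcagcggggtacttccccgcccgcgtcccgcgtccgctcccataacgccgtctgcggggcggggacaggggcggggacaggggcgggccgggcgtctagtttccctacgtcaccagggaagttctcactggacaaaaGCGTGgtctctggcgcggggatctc
BCL2L11, chr2:111120664-111120913, plus strand: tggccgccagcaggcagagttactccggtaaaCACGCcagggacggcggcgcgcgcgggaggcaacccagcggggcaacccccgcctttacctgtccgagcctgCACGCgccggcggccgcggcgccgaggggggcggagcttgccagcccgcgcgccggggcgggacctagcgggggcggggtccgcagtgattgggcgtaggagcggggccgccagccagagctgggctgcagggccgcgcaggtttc
RefSeq entries of 300 bases (250 before and 50 after the start) were found for 8 of the 10 genes. GCGTG occurred in those of 4 (BMF, PMAIP1, BCL2L11 and BCL2L1), while 36.5% of all 35116 promoters in the table hold it. The half-site TGACG of the cyclic AMP response element occurred in 5 of 8, against 24.6% of all promoters. In BMF it lies at -57 to -53 from the start and shares 2 bases with GCGTG at -60 to -56. The E-box CACGTG was found in BBC3 and 4 times in BAX, against 7.3% of promoters. The FOXO element TGTTTAC was found in BCL2L11 alone of the 8, against 3.4%, and the antioxidant element core TGACNNNGC in BAX and BCL2L1, against 13.3%. Both strands were searched. BMF and BCL2L1 each have 2 entries, and of these GCGTG is in the first of BMF and the second of BCL2L1. A gene was counted when any of its entries matched, while the shares of all promoters count single entries. The counts of genes and these shares are therefore not like measures. These are matches of letters and not measured binding.

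BMF (ENSG00000104081.13, GRCh38 chr15:40087890-40108892, minus strand) encodes a BH3-only protein that is held at the myosin V motor of the actin cytoskeleton through a dynein light chain and is released when cells detach. It had the widest relative range of the 9 tested genes. The antisense gene BMF-AS1, which covers 8.46% of the exon bases of BMF on the other strand, had 0 counts in every library. In the 24-h controls, BMF was at 8.73, 46.1 and 8.54 CPM in experiments 1, 2 and 3. The same experiments after 1 µg/cm2 gave 39.1, 96.0 and 40.1 CPM. After 30 µg/cm2 they gave 1.48, 8.01 and 2.01 CPM. Within each experiment, the low dose was therefore above the control and the high dose below it, and the libraries of experiment 2 were the highest at every dose. The control of experiment 2 lay above 2 of the 3 libraries treated with 1 µg/cm2, and every library treated with 30 µg/cm2 lay below every control. In the repeated protocol, BMF was at 10.6, 10.6 and 9.79 CPM in the controls and at 11.0, 12.4 and 15.1 CPM after daily exposure. There the groups did not overlap, but lay close together.

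**Figure D1:**
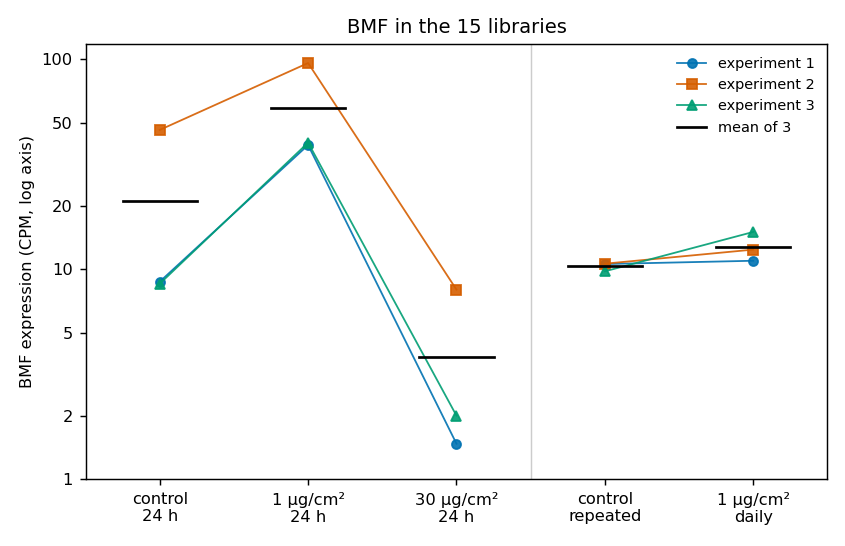
BMF expression in CPM on a log axis for the 15 libraries, with the 24-h protocol on the left and the repeated protocol on the right. Points are single libraries, lines join libraries of the same experiment number within a protocol and black bars are means of 3. At 24 h each line is highest at 1 µg/cm2 and lowest at 30 µg/cm2, with experiment 2 (8.01 to 96.0 CPM) above the other two.

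After 30 µg/cm2, the mean of BMF fell to 3.83 ± 3.63 CPM against 21.1 ± 21.6 CPM in the controls (SD, n = 3). In edgeR's quasi-likelihood test the change was -2.44 ± 0.70 (SE) on the log2 scale, at an adjusted p of 0.0406. The change was -2.53, -2.52 and -2.07 in experiments 1, 2 and 3. With the experiment number as a block, the log2 fold change was -2.38 ± 0.23 (SE) and the adjusted p 1.52e-05. The size without the block was carried in part by the control of experiment 2, and was -1.17 with an adjusted p of 0.254 when that library was left out. Without the whole of 24-h experiment 2 it was -2.35, with an adjusted p of 4.82e-08. The call without the block was also lost when 30 µg/cm2 replicate 1 or 3 or any 1 of the 6 libraries of the repeated protocol was left out (adjusted p 0.0563 to 0.166), and when just the groups compared were fitted (adjusted p 0.21). With the block, leaving out any 1 of the 3 experiments gave -2.35 to -2.51, and the call held each time.

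After 1 µg/cm2 for 24 h, BMF averaged 58.4 ± 32.6 CPM (SD, n = 3). Without the block, the difference of 1.47 ± 0.66 (SE) on the log2 scale did not pass the test (adjusted p = 1, edgeR). The 95% confidence interval ran from 0.06 to 2.88. Within experiments, the change was 2.16, 1.06 and 2.23. With the replicate block, BMF was higher by 1.81 ± 0.20 (SE) on the log2 scale, with an adjusted p of 0.00185, and was called. Without 24-h experiment 2, it was called also without the block (2.21, adjusted p 6.84e-08). The libraries treated with 1 µg/cm2 were higher than the controls in 7 of 9 pairs, both exceptions being against the control of experiment 2.

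Between the doses, BMF differed more than any other of the 9 tested genes. Its log2 difference of 30 from 1 µg/cm2 was -3.91 ± 0.73 (SE, adjusted p = 0.00443, edgeR), a ratio of 0.0663, with values of -4.69, -3.58 and -4.29 within the experiments. This comparison and those with the control share libraries. Leaving out single libraries gave -3.37 to -5.09, and all of these 15 fits called BMF. The call was lost when just the groups compared were fitted (-3.95, adjusted p 0.0686).

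Daily exposure gave a BMF level of 12.8 ± 2.07 CPM against 10.3 ± 0.48 CPM in the repeated controls (SD, n = 3). The log2 fold change of 0.31 did not pass the test (adjusted p = 0.894, 95% confidence interval -1.10 to 1.72), nor with the block (0.30, adjusted p 0.352). In the comparison of both responses to 1 µg/cm2, the daily one was smaller by 1.16 ± 0.92 (SE) on the log2 scale, with an adjusted p of 0.856. With the block, the difference was -1.51 ± 0.29 (SE, adjusted p 0.0475), which passed. That call was lost when 24-h experiment 1 or 3 was left out of the blocked fit (adjusted p 0.375 and 0.232).

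The other genes with the BH3 domain alone followed different patterns. PMAIP1 (NOXA, ENSG00000141682.11, chr18:59899948-59904306, plus strand), whose protein binds and neutralizes MCL1, rose after 30 µg/cm2. It was at 41.8, 45.5 and 48.8 CPM in the 24-h controls, at 39.5, 48.1 and 48.1 CPM after 1 µg/cm2 and at 86.3, 58.4 and 88.4 CPM after 30 µg/cm2. The 30 µg/cm2 libraries lay above all others of the protocol, with experiment 2 the lowest of them. Compared with the controls the level was 1.71 times as high, or 0.78 ± 0.19 on the log2 scale (SE, adjusted p = 0.0167, edgeR). The change within experiments was 1.05, 0.36 and 0.86. PMAIP1 remained called in the blocked fit (0.77, adjusted p 0.00187) and, without the block, in the absence of 24-h experiment 2 (0.935, adjusted p 0.000314). The call was lost without control replicate 1, 30 µg/cm2 replicate 1 or 30 µg/cm2 replicate 3 (adjusted p 0.0724 to 0.0887), and with the block in the absence of experiment 1, where the size was 0.599, and with just the groups compared (adjusted p 0.0982). Against 1 µg/cm2, PMAIP1 was also higher after 30 µg/cm2 (0.78 ± 0.19 SE, adjusted p 0.0171), a call lost without 1 µg/cm2 replicate 1, 30 µg/cm2 replicate 1 or 30 µg/cm2 replicate 3 (adjusted p 0.08 to 0.0959), with just the groups compared (adjusted p 0.149), and with the block in the absence of experiment 1 (0.56, adjusted p 0.0539). This difference between the doses remained called in the blocked fit (0.77, adjusted p 0.0018). The same held without the block in the absence of 24-h experiment 2 (0.97, adjusted p 0.000244). The level after 1 µg/cm2 was at 45.2 ± 4.97 CPM against 45.4 ± 3.49 CPM in the controls (SD, n = 3).

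PMAIP1 in the repeated protocol was at 74.6, 64.0 and 74.3 CPM in the controls and at 75.5, 76.7 and 115 CPM after daily exposure. The groups did not overlap, with 1 high library among the treated. The log2 fold change of 0.33 did not pass (adjusted p = 0.521, 95% confidence interval -0.07 to 0.73), nor with the block (0.30, adjusted p 0.185). Without 24-h experiment 2 it was 0.33 (adjusted p 0.0791, edgeR). With the block and without that experiment it was 0.31 (adjusted p 0.00241), under the threshold of 0.6.

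BCL2L11 (BIM, ENSG00000153094.22, chr2:111119378-111168447, plus strand), which can bind every guardian and also activates BAX directly, was at 29.5, 39.5 and 27.4 CPM in the 24-h controls. It was at 41.9, 36.5 and 41.8 CPM after 1 µg/cm2 and at 25.4, 25.9 and 25.1 CPM after 30 µg/cm2. The high-dose libraries lay below all others of the protocol. BCL2L11 was lower after 30 than after 1 µg/cm2 (-0.65 ± 0.13 SE, adjusted p = 0.0068, edgeR), with values of -0.72, -0.49 and -0.74 within the experiments. This call was lost with just the groups compared (-0.68, adjusted p 0.0852). Neither dose passed against the control, with log2 fold changes of 0.32 (adjusted p 1) and -0.33 (adjusted p 0.134). The change after 1 µg/cm2 was 0.51, -0.11 and 0.61 within experiments 1, 2 and 3. Without experiment 2 the changes were 0.56 (adjusted p 0.000998, under the threshold of 0.6) and -0.19 (adjusted p 0.116).

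After daily exposure, BCL2L11 was at 34.0, 35.4 and 31.2 CPM against 48.5, 47.3 and 49.8 CPM in the repeated controls, with no overlap. The change of -0.53 ± 0.13 (SE) on the log2 scale did not pass (adjusted p = 0.113, edgeR). With the block the adjusted p was 0.0169 at the same size, which stays under the threshold of 0.6. Without 24-h experiment 2 and without the block, the change was -0.53 (adjusted p 0.00011, edgeR), also under it. The difference between the daily response and the response to 1 µg/cm2 at 24 h was -0.85 ± 0.19 (SE) on the log2 scale, with an adjusted p of 0.351. With the block it was -0.87 ± 0.17 (SE, adjusted p 0.0475) and was called, but not when 24-h experiment 1 or 3 was left out of that fit. Without the block it was called when control replicate 2 of the 24-h protocol was left out (-1.03, adjusted p 0.0129).

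BBC3 (PUMA, ENSG00000105327.17, chr19:47220822-47232766, minus strand), a well-known target of p53, was at 8.37, 16.5 and 8.40 CPM in the 24-h controls. It was at 9.62, 23.5 and 8.74 CPM after 1 µg/cm2, and after 30 µg/cm2 at 16.2, 17.8 and 17.7 CPM. Experiment 2 was high in the controls and at the low dose, while the 3 high-dose libraries lay within a narrow range. The log2 fold change after 30 µg/cm2 was 0.64 ± 0.35 (SE) and did not pass (adjusted p = 0.295, edgeR). With the block it was 0.73 ± 0.22 (SE, adjusted p 0.0239) and was called, and without 24-h experiment 2 it was 1.00 (adjusted p 0.000393). In the blocked fit without experiment 1 or experiment 3, BBC3 was not called. In the repeated protocol, the controls were at 22.8, 19.4 and 21.2 CPM and the treated libraries at 24.0, 19.1 and 14.2 CPM, which overlapped (-0.14, adjusted p 0.909).

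BIK (ENSG00000100290.2, chr22:43110748-43129712, plus strand), whose protein sits at the endoplasmic reticulum, was the lowest of the tested 9 in CPM. At 24 h it was at 1.63 ± 0.21 CPM in the controls, 2.46 ± 0.68 CPM after 1 µg/cm2 and 1.57 ± 0.45 CPM after 30 µg/cm2 (SD, n = 3). Every library of the low dose lay above every control, yet the log2 fold change of 0.58 did not pass (adjusted p = 1, 95% confidence interval 0.04 to 1.12). With repeated exposure it was at 2.66, 2.96 and 2.51 CPM in the controls and at 4.47, 3.58 and 4.40 CPM after daily exposure. These groups did not overlap either, and the log2 difference of 0.61 ± 0.24 (SE) did not pass (adjusted p = 0.321). BIK was called there when the fit held just the libraries compared (adjusted p 0.0172) or left out 24-h experiment 2 (adjusted p 0.0126). Between the doses it was lower after 30 µg/cm2 by 0.63 on the log2 scale (adjusted p 0.133), and was called without 30 µg/cm2 replicate 2 (-0.91, adjusted p 0.0282).

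**Figure D2:**
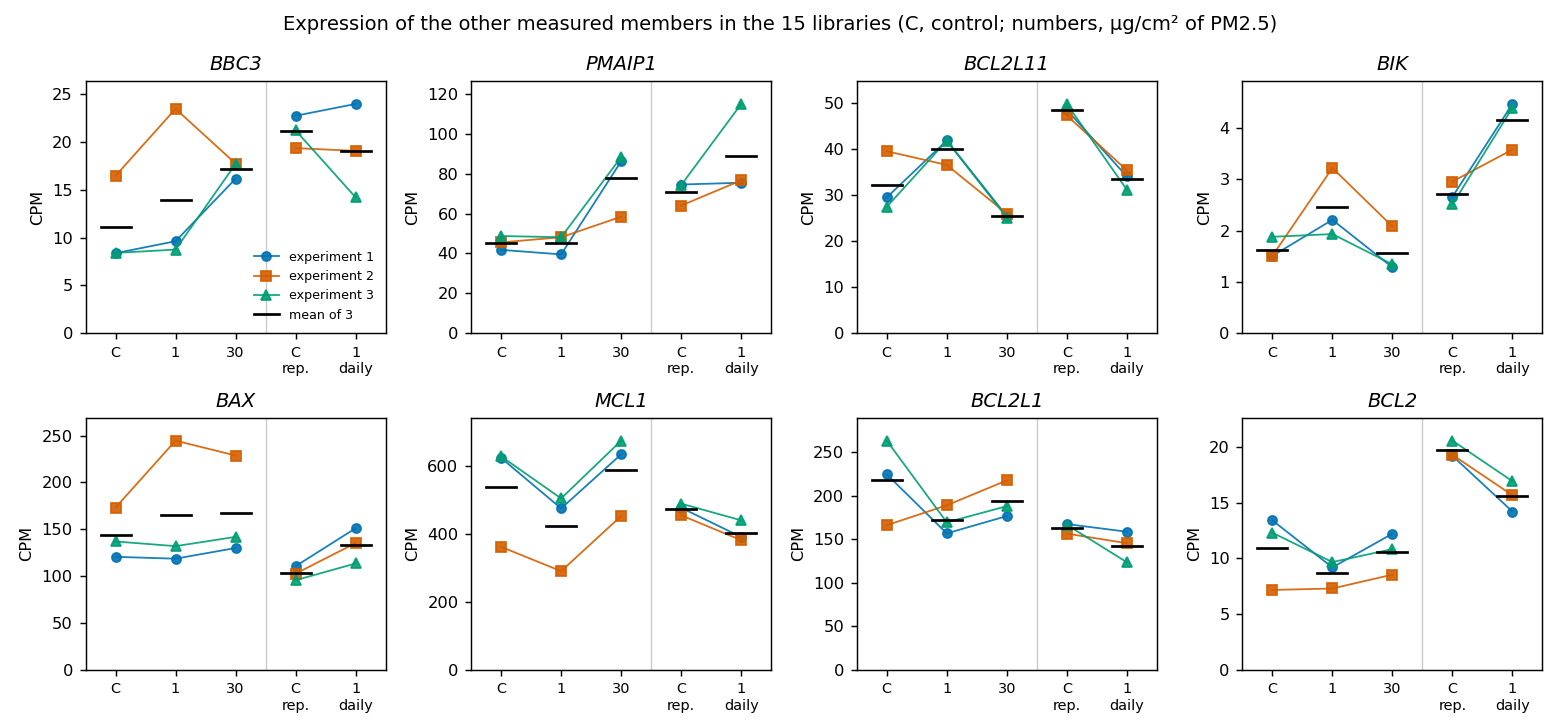
Expression in CPM of the other 8 measured genes in the 15 libraries, 1 panel per gene and each axis starting at 0. Points are libraries, coloured and joined by experiment number within a protocol, and black bars are means of 3. PMAIP1 is highest of the 24-h protocol at 30 µg/cm2, BCL2L11 is lowest there, and BAX, MCL1 and BCL2 show experiment 2 apart from experiments 1 and 3.

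BAX (ENSG00000087088.19, chr19:48954815-48961798, plus strand), the effector that forms the pore, differed more between experiments than between doses. It was at 121, 173 and 137 CPM in the 24-h controls, at 119, 245 and 132 CPM after 1 µg/cm2 and at 130, 229 and 142 CPM after 30 µg/cm2. Experiment 2 was the highest at each dose and the groups overlapped. The log2 fold changes were 0.20 (adjusted p 1) and 0.22 (adjusted p 0.689). After daily exposure, BAX was at 151, 135 and 114 CPM against 111, 103 and 95.6 CPM in the repeated controls. Its log2 fold change of 0.37 did not pass (adjusted p = 0.63), and the blocked fit gave the same size with an adjusted p of 0.0374, under the threshold of 0.6.

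None of the guardians was called in a comparison of a treatment with its control. MCL1 (ENSG00000143384.12, chr1:150574551-150579738, minus strand), a short-lived guardian that PMAIP1 opposes, was at 537 ± 152 CPM in the 24-h controls, 423 ± 116 CPM after 1 µg/cm2 and 586 ± 118 CPM after 30 µg/cm2 (SD, n = 3). Its lowest library in each of these groups was that of experiment 2, at 361, 290 and 452 CPM. The log2 fold changes were -0.35 (adjusted p 1) and 0.13 (adjusted p 0.802). Without 24-h experiment 2 they were -0.34 (adjusted p 0.0254, edgeR) and 0.05 (adjusted p 0.682), under the threshold of 0.6. MCL1 was higher after 30 than after 1 µg/cm2 by 0.47 ± 0.23 (SE), which did not pass (adjusted p 0.232, edgeR). With the block the difference was 0.49 with an adjusted p of 0.00119, again under the threshold of 0.6. After daily exposure it was at 403 ± 31.3 CPM against 473 ± 17.4 CPM (SD, n = 3), lower in 9 of 9 pairs and with a log2 fold change of -0.23 (adjusted p 0.753).

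BCL2L1 (ENSG00000171552.12, chr20:31664452-31723989, minus strand), which encodes BCL-XL, was at 218 ± 49.0 CPM in the 24-h controls, 172 ± 16.3 CPM after 1 µg/cm2 and 194 ± 21.2 CPM after 30 µg/cm2 (SD, n = 3). Experiment 2 was above its control at both doses and the other two were below theirs, and the groups overlapped. After daily exposure, it was at 143 ± 17.7 CPM against 164 ± 6.09 CPM (SD, n = 3). None of the 3 comparisons with a control passed (adjusted p 0.583 to 1). Without 24-h experiment 2, the log2 fold changes were -0.57 after 1 µg/cm2 and -0.43 after 30 µg/cm2 (adjusted p 0.0049 and 0.00473, edgeR). Both stayed under the threshold of 0.6. The strand used in counting was not given, and 43.0% of the exon bases of BCL2L1 also lie in ABALON on the other strand, which had at most 80 counts in a library.

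BCL2 (ENSG00000171791.12, chr18:63123346-63320128, minus strand), the guardian that gave the family its name, was at 13.4, 7.16 and 12.3 CPM in the 24-h controls. It was at 9.18, 7.29 and 9.66 CPM after 1 µg/cm2 and at 12.2, 8.53 and 10.8 CPM after 30 µg/cm2, and the groups overlapped. The log2 fold changes were -0.33 and -0.06, and neither passed in edgeR's quasi-likelihood test, nor with the block (adjusted p 0.467 and 0.849). Without 24-h experiment 2, the log2 fold changes were -0.44 (adjusted p 0.0377, edgeR) and -0.17 (adjusted p 0.277), under the threshold of 0.6. In the repeated protocol BCL2 was at 19.2, 19.3 and 20.6 CPM in the controls and at 14.2, 15.6 and 16.9 CPM after daily exposure, with no overlap. The log2 fold change of -0.34 did not pass (adjusted p = 0.564, 95% confidence interval -0.78 to 0.11), nor with the block (adjusted p 0.0716).

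**Figure D3:**
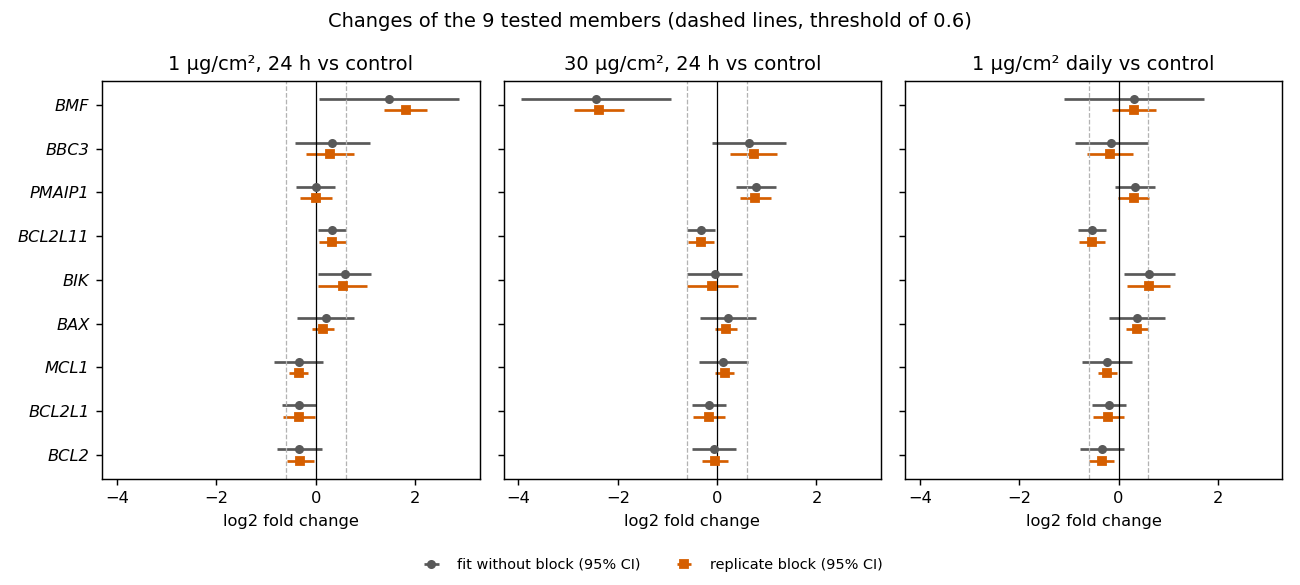
Log2 fold changes against the matching control for the 9 tested genes in 3 panels, with 95% confidence intervals from the fit without a block (circles) and with the experiment number as a block (squares). Dashed lines mark the threshold of 0.6. After 1 µg/cm2 the interval of BMF runs from 0.06 to 2.88 without the block and from 1.37 to 2.25 with it.

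In all, 2 of the 9 tested genes were called after 30 µg/cm2 (PMAIP1 higher, BMF lower), where 8.07% of all tested genes were called, 673 higher and 747 lower. With the block 3 of 9 were called (BBC3 in addition), beside 15.2% of all genes. None of the 9 was called after 1 µg/cm2 by edgeR's quasi-likelihood test, beside 0.0625% of all genes, and with the block 1 (BMF) beside 0.42%. After daily exposure none was called, beside 0.227%, nor with the block, beside 4.39%. At an unadjusted p below 0.05 the counts over all genes were 4161, 534 and 2102. The share of all genes whose groups did not overlap was not counted, so a lack of overlap describes single genes only. Between the doses 3 of 9 were called (PMAIP1 higher, BMF and BCL2L11 lower), beside 7.84% of all genes, and the same number with the block, beside 15.6%. In the difference between the daily and the single response to 1 µg/cm2, none of 9 and 0% of all genes were called, with 1245 genes at an unadjusted p below 0.05, 75 called by DESeq2 and 13 by the likelihood ratio test. With the block 2 of 9 were called (BMF and BCL2L11), beside 1.03%.

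The controls of both protocols also differed. Of all tested genes, 21.9% were called between them, and 3 of the 9 (PMAIP1, BIK and BCL2) were higher in the repeated controls. The log2 differences were 0.65 ± 0.19, 0.73 ± 0.25 and 0.84 ± 0.21 (SE), with adjusted p of 0.0188, 0.0404 and 0.00856 in edgeR. Leaving out 1 library ended the call of PMAIP1 for control replicates 1 and 3 of either protocol (adjusted p up to 0.0828). It ended that of BIK for any of the 6 controls, 1 µg/cm2 replicate 1 and the 3 daily libraries (adjusted p up to 0.126), and that of BCL2 for 24-h control replicate 2, where the size was 0.594. BCL2L11 lay just under the threshold of size (0.596, adjusted p 0.00412), and passed it without 24-h control replicate 2 (0.75) or repeated control replicate 2 (0.62). BBC3 was higher by 0.94 (adjusted p 0.0591) and was called without 24-h control replicate 2 (1.31, adjusted p 0.0163) or 1 µg/cm2 replicate 2 (0.90, adjusted p 0.0121). It was also called in 5 of the 9 alternatives other than leaving out 1 library. For BMF the difference was -1.02 ± 0.66 (SE, adjusted p 0.266), and it was 0.24 when control replicate 2 of the 24-h protocol was left out. By the study's methods, the repeated protocol also began at a lower plating density, and its cells were washed between treatments. Time in culture, plating density, washes, medium changes and the separate experiments cannot be told apart in this comparison. They also differ between the daily and the single response to 1 µg/cm2.

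Ordered by mean CPM over both protocols, as a description, BMF ran from 1 µg/cm2 through the 24-h control, daily exposure and the repeated control to 30 µg/cm2. The place of the 24-h control rests on experiment 2, since its other two libraries lay below every library of the repeated protocol. Of its neighbours in that order, daily exposure and repeated control did not overlap, nor did repeated control and 30 µg/cm2, while the 24-h control overlapped with both 1 µg/cm2 and daily exposure. For BCL2L11, the repeated control was above 1 µg/cm2, which was above daily exposure, each without overlap. The 24-h control overlapped with daily exposure, and lay above 30 µg/cm2 without overlap. For BBC3, MCL1 and BCL2L1, every pair of neighbours overlapped.

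Levels of different genes were compared per exon length, as RPKM. MCL1 was the highest of the 10 in all 5 conditions, at 122.9 ± 34.8 RPKM in the 24-h controls (SD, n = 3) and 92.3 to 134 RPKM as means of the other conditions. BCL2L1 and BAX came next in each condition, PMAIP1 at rank 4, and BCL2A1 last. BMF was at rank 5 after 1 µg/cm2, at 10.7 ± 5.98 RPKM, and at rank 9 after 30 µg/cm2, at 0.704 ± 0.666 RPKM (SD, n = 3), by the means. In the 24-h controls it was at 1.60, 8.46 and 1.57 RPKM. Among the 5 BH3-only genes, BMF made up 5.54%, 20.4% and 4.88% of the summed RPKM in the 24-h controls. It made up 19.7%, 31.8% and 18.4% after 1 µg/cm2 and 0.553%, 3.74% and 0.729% after 30 µg/cm2. The share in the repeated protocol was 3.47% to 4.16% in the controls and 3.79% to 4.41% after daily exposure. PMAIP1 was the largest of the 5 in each condition.

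**Figure D4:**
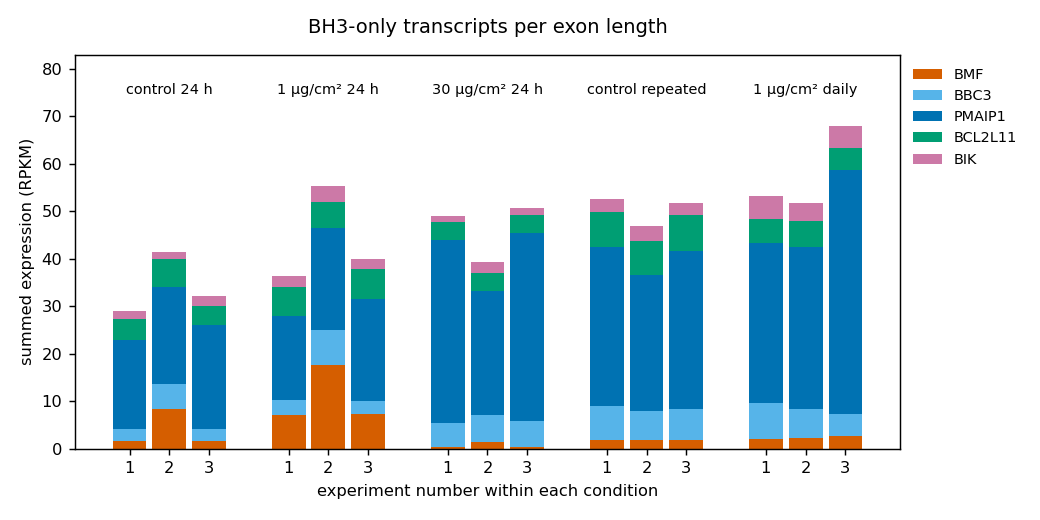
Summed RPKM of the 5 BH3-only genes in each of the 15 libraries, stacked by gene and starting at 0. The sums lie between 28.9 and 68.0 RPKM. Within each 24-h experiment the BMF segment is tallest after 1 µg/cm2 and shortest after 30 µg/cm2, where that of PMAIP1 is taller than in the controls.

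Lists of other genes of the pathway were read in the same fits. Of 13 further BCL2 family genes, 10 passed the filter and 1 fell after 30 µg/cm2, BNIP3L, a mitophagy receptor, from 169 to 97.8 CPM (-0.79 ± 0.15 SE, adjusted p 0.00408). Their median log2 fold change there was 0.04, against 0.03 over all genes. None of the 10 was called after 1 µg/cm2 or daily exposure. BOK, an effector-like protein, was called at the high dose with the block alone (-0.64, adjusted p 0.00121), and is named after its values were seen. The 9 genes of caspases and the apoptosome, which carry out the death programme downstream, all passed the filter. None of them was called in the 3 comparisons with a control, with or without the block. Of the 7 inhibitors of apoptosis and their antagonists none was called without the block, and with it 2 were lower after 30 µg/cm2 and 1 after daily exposure. The 8 partners of the family, among them the dynein light chains, gave no call in the 3 comparisons.

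Among 12 transcriptional regulators of the family, 3 were called after 30 µg/cm2. TRIB3, a pseudokinase induced by the integrated stress response, rose from 146 to 891 CPM (2.61 ± 0.38 SE, adjusted p 0.000617, edgeR). FOXO1 and FOXO4, transcription factors held back by AKT, fell. FOXO1 went from 49.2 to 22.6 CPM (-1.12 ± 0.22 SE, adjusted p 0.00514). FOXO4 went from 12.2 to 7.24 CPM (-0.74 ± 0.18 SE, adjusted p 0.0178). With the block 3 regulators were higher and 3 lower at this dose. None of the 12 was called after 1 µg/cm2. TP63, a p53 relative of basal epithelial cells, fell after daily exposure from 59.2 to 29.9 CPM (-0.99 ± 0.19 SE, adjusted p 0.0477).

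**Figure D5:**
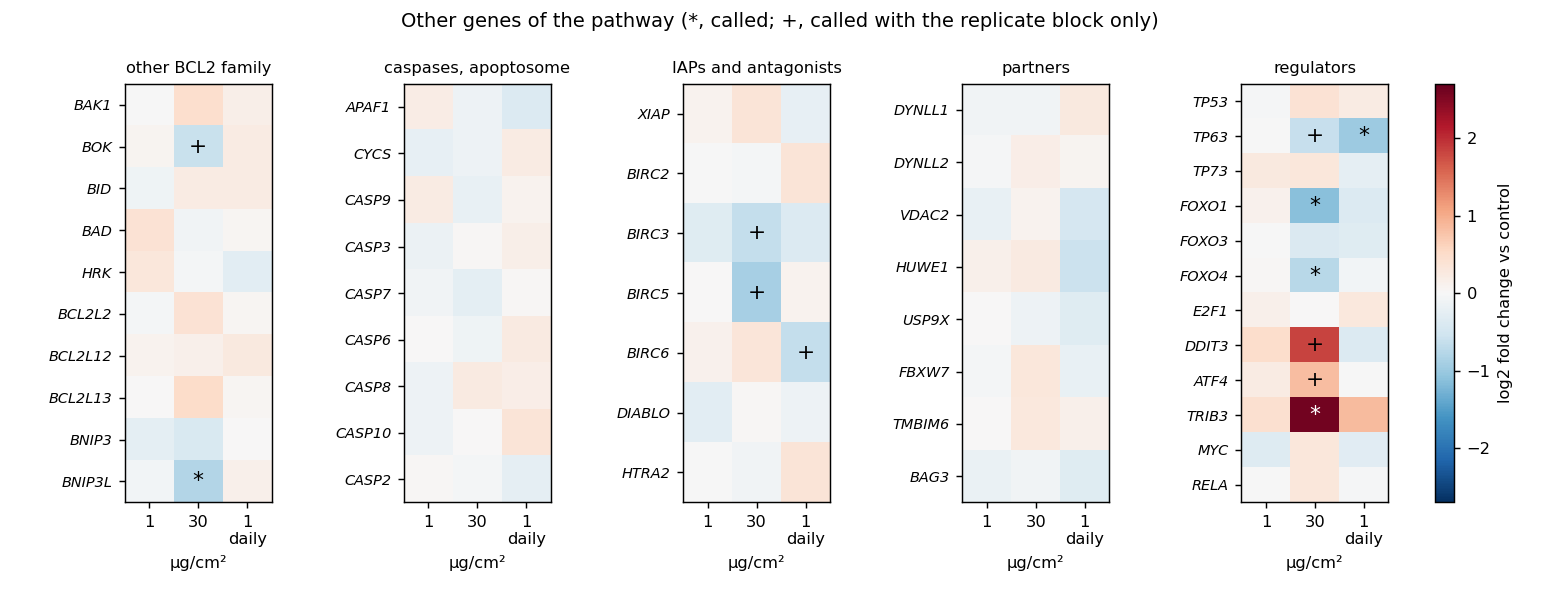
Log2 fold changes against the matching control of the tested genes of 5 further lists, with 1 column for each treatment. A star marks a call by edgeR's quasi-likelihood test and a plus a call with the replicate block alone. The strongest colour is that of TRIB3 after 30 µg/cm2 (2.61), and the panels of caspases and partners hold no mark.

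The epithelial markers moved together with the changes at the high dose. Of the 8, 5 fell after 30 µg/cm2, and their summed level was 1576 to 2635 CPM against 3673 to 4189 CPM in the 24-h controls. The sum was 3240 to 4076 CPM after 1 µg/cm2 and none of the 8 was called. After daily exposure 2 fell, with a sum of 1963 to 2237 CPM against 3003 to 3580 CPM. The part of this shift in the lower BMF and higher PMAIP1 was not tested.

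Across the 15 libraries, the 5 genes whose log2 CPM correlated best with BMF were CCN5 (a secreted matricellular protein, Pearson r = 0.963), STK38 (a kinase of the Hippo-related NDR group, 0.954), ADAMTS15 (a secreted protease, 0.952), VSIR (an immune checkpoint protein, 0.948) and NFE2 (a transcription factor, 0.946). CCN5 was at 3.49 ± 3.64 CPM in the 24-h controls, 8.50 ± 4.92 CPM after 1 µg/cm2 and 0.595 ± 0.596 CPM after 30 µg/cm2 (SD, n = 3). Its log2 fold changes of 1.30 and -2.48 did not pass (adjusted p 1 and 0.055). The 5 genes most opposed to BMF were NR4A1 (a nuclear receptor induced as an early response gene, r = -0.952), RAP1GAP2 (-0.951), SOWAHC (-0.947), KDSR (an enzyme of ceramide synthesis, -0.945) and SRPRA (a subunit of the signal recognition particle receptor, -0.94). NR4A1 was called higher after 30 µg/cm2 (0.99, adjusted p 0.0214). Within the family, the correlation with BMF was -0.748 for MCL1, -0.574 for PMAIP1 and 0.546 for BCL2L11. The libraries share doses and the spread of experiment 2, so these values describe likeness over the 15 libraries and no more.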

How the data were processed

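The authors sequenced poly(A) RNA as single-end reads of 50 bases, aligned them to GRCh38 with STAR 2.5.3 and deposited counts per gene from featureCounts, without normalization. The labels name hg19, but the exon coordinates in the table start or end as in GENCODE 44 on GRCh38 for 87.3% of genes. The strand setting and annotation release were not given in the sources used here. Symbols were added to 57437 of 58219 genes by Ensembl ID.

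Counts were scaled by TMM, filtered with filterByExpr and fitted over all 15 libraries by edgeR 4.0.16 (R 4.3.3, quasi-likelihood test in the earlier mode, 1 mean per condition). SEs are the log2 fold change over the square root of F. RPKM used the table's exon lengths. Changes within experiments used log2 CPM with a prior count of 1. Replicate numbers come from the labels and the series record gives them as experimental batches. Deviations of libraries with the same number correlated in every pair (r 0.185 to 0.7 at 24 h, 0.108 to 0.159 in the repeated protocol). With different numbers, r was -0.659 to 0.425 at 24 h and -0.112 to -0.031 in the repeated protocol. Deviations were taken from the mean of the 3 libraries of each condition. A positive r for the same number therefore tends to make r negative for different numbers. Experiments 1 and 3 of the 24-h protocol were not always told apart. With 30 µg/cm2 replicate 3, control replicate 1 gave r 0.374 and control replicate 3 gave 0.185. The numbers were used as a replicate block within each protocol, as labelled. No 2 libraries of the same condition differed by less than sampling noise.

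The members, lists and tests were chosen with earlier results of these data known. Named genes are the 10 members, genes of the other lists called against a control, and the 5 genes most and least correlated with BMF. Alternatives were RLE scaling, a filter at 1 CPM or none, the block, edgeR's current mode, the likelihood ratio test, DESeq2 1.42.0, adjusted p alone, just the groups compared, and each library left out. Fits without one 24-h experiment were added after seeing the data. Tested on simulated data for 30 µg/cm2 against control with a shift of experiment 2 (17093 genes), the fit without the block recovered 11.2% of changes of log2 1 and 60.2% of log2 2, and the block 75.5% and 95.9%. With no shift (17224 genes), these were 48% and 82.7% without the block and 38.8% and 75.5% with it. The shifted data had 1 fixed spread for all genes and the same shift in all 24-h conditions, which the block removes by design. The data without a shift took the spread of each gene from the real libraries. The percentages with and without a shift can therefore not be compared, and do not show which fit suits the real data. Figures were drawn with matplotlib 3.10.9. A marker gene is not reported here.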

Additional observations from a re-analysis of the deposited data

Results flagged for a closer look

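The response of BMF to 1 µg/cm2 differed between the protocols in the test of the difference with the replicate block. The daily response minus the response at 24 h was -1.51 on the log2 scale (adjusted p 0.0475). BCL2L11 differed in the same test by -0.87 (adjusted p 0.0475), with a log2 change at 24 h of 0.51, -0.11 and 0.61 within experiments 1, 2 and 3. With all libraries and no block, neither passed in edgeR's quasi-likelihood test (adjusted p 0.856 and 0.351), while BCL2L11 passed in DESeq2 (adjusted p 0.00581). Both blocked calls were lost without 24-h experiment 1 or experiment 3 (adjusted p 0.375 and 0.232 for each gene). Without 24-h experiment 2 and without a block, both passed (-1.89 and -1.10, adjusted p 1.13e-05 and 2.61e-05).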

How the results depend on the processing

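After 30 µg/cm2, 2 genes of the family were called. This count became 3 with the block and without 24-h experiment 2, with or without the block. It became 0 when just the groups compared were fitted, 1 with the block without experiment 1, and 0 to 2 when 1 library was left out. After 1 µg/cm2 the count of 0 became 1 with the replicate block, without 24-h experiment 2, and with the block without experiment 1, 2 or 3. After daily exposure it became 1 with just the groups compared and, with or without the block, in the absence of 24-h experiment 2. Between the doses, 3 became 0 with just the groups compared and 5 without experiment 2, with or without the block. It became 2 with the block without experiment 1, and 2 to 4 with 1 library left out. For the difference of both responses to 1 µg/cm2, 0 became 2 with the block and without experiment 2, with or without the block, 1 with DESeq2, and 0 to 1 with 1 library left out. For the controls of both protocols, 3 became 1 to 4 with 1 library left out. It became 4 with no filter, the likelihood ratio test, DESeq2, adjusted p alone, just the groups compared, and without experiment 2.

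Some directions turned. With the block without experiment 3, BIK was 0.087 and BCL2 0.018 after 30 µg/cm2, and BCL2 was 0.0019 without experiment 1. After 1 µg/cm2, PMAIP1 was 0.014 with the filter at 1 CPM, and 0.044 and 0.0026 with the block without experiment 1 or 3. BAX was -0.030 without experiment 2, with or without the block. BMF between the controls was 0.24 without experiment 2. With 1 library left out, the values after 30 µg/cm2 ran from -0.32 to 0.063 for BIK, -0.086 to 0.37 for BAX, -0.093 to 0.28 for MCL1 and -0.29 to 0.10 for BCL2. After 1 µg/cm2 they ran from -0.27 to 0.74 for BBC3, -0.057 to 0.10 for PMAIP1 and -0.20 to 0.41 for BAX. They ran from -0.34 to 0.027 for BBC3 after daily exposure and from -1.44 to 0.24 for BMF between the controls. The cause was not tested. Over all alternatives, the adjusted p of BMF ran from 4.37e-11 to 0.254 after 30 µg/cm2 and from 8.85e-13 to 1 after 1 µg/cm2.

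Over all genes, the 1420 calls after 30 µg/cm2 became 360 with just the groups compared, 2681 with the block, 3430 without experiment 2 and 3699 with both, and 794 to 2706 with 1 library left out. The 11 calls after 1 µg/cm2 became 38 with no filter, 74 with the block, 34 with the likelihood ratio test, 39 with DESeq2, 2 with just the groups compared, 378 without experiment 2 and 590 with both, and 4 to 45 with 1 library left out. The 40 calls after daily exposure became, in the same order, 92, 773, 194, 250, 1029, 1083 and 1353, with 599 and 702 for the block without experiment 1 or 3, and 0 to 104. The 1379 between the doses became 149 with just the groups compared, 2737 with the block, 3113 without experiment 2, 3374 with both and 2085 with the block without experiment 3, and 711 to 2715. The 0 of the difference became 20 with no filter, 181 with the block, 13 with the likelihood ratio test, 75 with DESeq2, 1 with just the groups compared, 1766 without experiment 2, 2213 with both and 1 with the block without experiment 3, and 0 to 63. Those between the controls ran from 2832 to 4504 with 1 library left out.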
